A study of Mus musculus with 20 samples.

Results

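Ribosome captures through RPL10A and through RPS25 were set against each other in the mouse embryonic stem cell line E14, which is pluripotent. For each transcript the RPL10A capture ratio, that is the log2 footprint density on captured ribosomes minus that on all ribosomes of the same cells, was reduced by the RPS25 capture ratio of its own line. The transcripts were the 8090 listed in the files of both lines, of 8505 in the RPL10A line, 8779 in the RPS25 line and 9498 in the whole series of 20 libraries. In all, 4 groups of 2 libraries entered the difference, and no library served both lines. The RPL10A capture and its total libraries came from cells with a 3xFLAG tag on 1 endogenous Rpl10a allele, and the RPS25 capture and its total libraries from cells with 1 endogenous Rps25-3xFLAG allele, so the other allele of each gene was untagged. Cycloheximide, a drug that stalls elongating ribosomes, was added to all cells at 100 µg/ml in the last 1 min of culture. After RNase digestion, tagged ribosomes were bound to anti-FLAG beads in both lines, while total ribosomes were pelleted through a sucrose cushion. Tag position, line and captured protein changed together between the lines and cannot be told apart. The labels name no clone, and nothing in them ties replicates to independent cultures. The p-values thus cover the spread between these libraries alone, which may be technical.

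RPL10A (uL1) is a protein of the large ribosomal subunit in the mobile L1 stalk, beside the site from which spent tRNAs leave. RPS25 (eS25) is a protein of the small subunit and is known for its part in initiation at several viral internal ribosome entry sites. Ribosome profiling sequences the mRNA fragments that ribosomes shield from RNase. A footprint density therefore reflects the ribosomes on all copies of an mRNA together, and so also the abundance of that mRNA. A capture ratio asks whether ribosomes that carry the tagged protein are over- or under-represented there. The difference between capture ratios asks whether the over-representation depends on which protein was tagged.

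Transcripts carried UCSC identifiers that the files do not pair with gene names, and 0 matched the reference tables. Gene groups and stem cell markers are for that reason not analysed here, and each transcript goes by its identifier. Transcripts of the tagged genes may be among those described, and which they are was not determined. Values are RPKM, read densities scaled by transcript length and library size, and comparisons were made on log2(RPKM + 1), a scale on which fold changes come out too small where RPKM is low. The transcripts shared by both lines held 99.3% to 99.5% of the summed RPKM of each RPL10A-line library and 96.5% to 96.7% of each RPS25-line library. The 415 listed in the RPL10A line only had a median mean level of 5.40 RPKM, and the 689 listed in the RPS25 line only had 8.32 RPKM, against 26.1 RPKM for those shared. Replicates were unequal in their spread: the SD of the log2 difference between the 2 libraries was 0.401 in the RPL10A capture and 0.310 in its totals, and 0.435 in the RPS25 capture and 0.214 in its totals.

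The RPL10A and RPS25 capture ratios differed at a limma adjusted p below 0.05 in 1 transcript. uc008bqp.2, among the most abundant footprints with a mean of 2987 RPKM, was higher by 1.26 on the log2 scale in the RPL10A ratio than in the RPS25 ratio (SE 0.14, 95% interval 0.95 to 1.58, limma adjusted p = 0.0353). No transcript was lower at that threshold, where the smallest adjusted p was 0.191 in limma. The call made up 0.0124% of the 8090 tested. At an unadjusted p below 0.05 limma marked 583, or 7.21%. A call is an adjusted p below 0.05, with Benjamini-Hochberg adjustment over all transcripts.

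uc008bqp.2 had 5204 and 4992 RPKM in the RPL10A capture, against 2171 and 1983 RPKM in the total libraries of that line. In the RPS25 capture it had 2498 and 2330 RPKM, against 2287 and 2431 RPKM in the total libraries of that line. The RPL10A capture libraries thus stood above the other 6 libraries, which lay close together whether they came from captured or from all ribosomes. Its RPL10A ratio was 1.30 and its RPS25 ratio 0.03 (SE 0.10 each), and the mean density was 2.45 times the total in the RPL10A capture and 1.02 times in the RPS25 capture. Between the lines' total libraries it differed by −0.18 (SE 0.10, limma adjusted p = 0.619). Whether uc008bqp.2 is the transcript of the tagged Rpl10a gene itself was not tested.

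**Figure D1:**
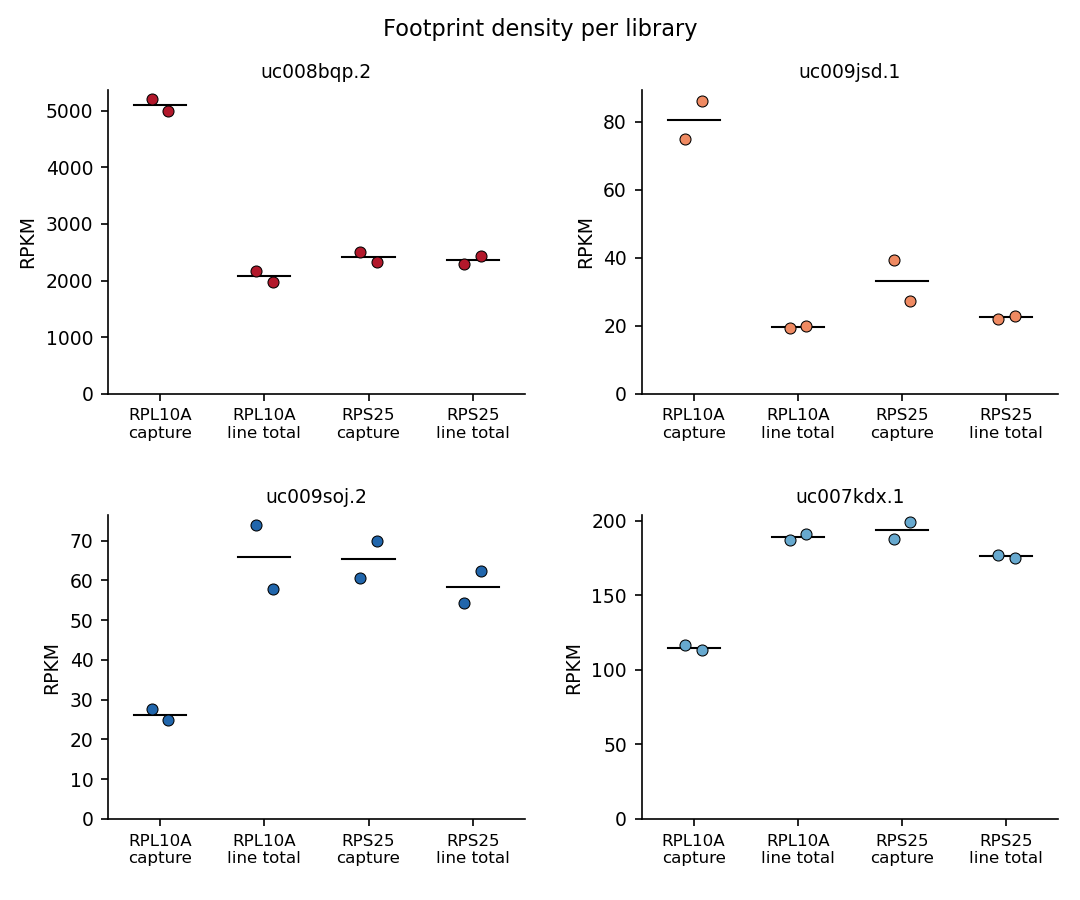
Footprint density in RPKM, on linear axes from 0, of 4 transcripts in the 8 libraries, ordered as RPL10A capture, RPL10A line total, RPS25 capture and RPS25 line total. Points are libraries and bars the mean of 2. The RPL10A capture stands apart in each panel, above the other groups for uc008bqp.2 and uc009jsd.1 and below them for uc009soj.2 and uc007kdx.1, and only uc008bqp.2 passed the test of the difference.

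The call was lost without any 1 of the 8 libraries, without the variance trend and with a replicate block. Without any 1 library the difference of uc008bqp.2 lay between 1.20 and 1.33, with limma adjusted p from 0.0564 to 0.308, and without a variance trend the limma adjusted p was 0.286. With the replicate number as a block it was 0.105, with a block within each line 0.165 and with the numbers of the RPS25 line crossed 0.0751 in limma.

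A further 3 transcripts, none of them called, had the smallest p of the uncalled ones in their direction that met both conditions of the choice. These were a level at or above the median and replicate ratios that did not overlap between lines. Both were met by 386 transcripts in the upward and 507 in the downward direction. Ratios that did not overlap, at any level, were found in 8.63% of all transcripts upward and 12.2% downward (20.8% in all). uc009jsd.1 had 74.8 and 86.0 RPKM in the RPL10A capture, against 19.4 and 19.9 RPKM in its totals. In the RPS25 capture it had 39.2 and 27.3 RPKM, against 21.9 and 23.0 RPKM in its totals. Both captures held more of it than their totals did, with ratios of 1.98 for RPL10A and 0.52 for RPS25 (SE 0.19 each), and the difference was 1.45 (SE 0.26, limma adjusted p = 0.292).

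On the other side, uc009soj.2 had 27.7 and 24.8 RPKM in the RPL10A capture, against 73.9 and 57.7 RPKM in its totals. In the RPS25 capture it had 60.6 and 69.9 RPKM, against 54.3 and 62.4 RPKM in its totals. Its RPL10A ratio was −1.28 and its RPS25 ratio 0.16 (SE 0.17 each), a difference of −1.44 (SE 0.24, limma adjusted p = 0.191). The RPL10A capture libraries were the lowest of the 8, and the other 6 overlapped.

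uc007kdx.1 had 116.4 and 113.4 RPKM in the RPL10A capture, against 187.0 and 191.4 RPKM in its totals. In the RPS25 capture it had 188.1 and 199.4 RPKM, against 177.2 and 175.1 RPKM in its totals. The ratios pointed in opposite directions in every pairing of libraries, from −0.75 to −0.68 for RPL10A and from 0.09 to 0.19 for RPS25. The difference was −0.85 (SE 0.16, limma adjusted p = 0.292). In a fit that added the 4 RPL22-line libraries, 5 of 7605 transcripts were called, 1 higher and 4 lower. The limma adjusted p was 0.0328 for uc009soj.2 and 0.0416 for uc007kdx.1. Their differences stayed at −1.44 and −0.85. What changed was the set tested and the spread, pooled there with libraries of another line, tag and antibody.

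The largest difference of all, 3.32 (SE 0.48, limma adjusted p = 0.170), belonged to the scarce uc009hcn.2, picked out after its values were seen. It had 17.3 and 17.5 RPKM in the RPL10A capture, against 4.4 and 5.1 RPKM in its totals. It had 0.6 and 2.3 RPKM in the RPS25 capture, against 7.3 and 5.2 RPKM in its totals. The groups do not overlap within either line and the captures point in opposite directions, at levels in the lowest quintile of the shared transcripts.

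Among the 24 transcripts that followed uc008bqp.2 in order of p, 19 had a lower RPL10A ratio and 5 a higher one, with limma adjusted p from 0.170 to 0.470. In 16 of the 19 the RPL10A ratio was below 0 and the RPS25 ratio above 0, and over all 19 the medians were −0.70 and 0.30. In 4 of the 5 the RPL10A ratio was above 0 and the RPS25 ratio below 0, and over all 5 the medians were 1.56 and −0.52. Over all shared transcripts these sign patterns made up 15.7% and 13.9%. Ordering by the p of the difference favours ratios of opposite sign, so these counts are descriptions.

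Some transcripts had large ratios in a capture without a difference of ratios that passed the test. uc007fhi.1 had 65.5 and 106.8 RPKM in the RPL10A capture, against 17.4 and 14.1 RPKM in its totals, and 29.6 and 34.3 RPKM in the RPS25 capture, against 3.5 and 4.5 RPKM in its totals. Its ratios were 2.34 and 2.72 (SE 0.24 each), so the difference was −0.38 with a 95% interval from −1.14 to 0.38 (limma adjusted p = 0.836). Compared directly, its captures differed by 1.37 (limma adjusted p = 0.0325) and its totals by 1.74 (limma adjusted p = 0.0738, SE 0.24 each). uc009vfb.1, low in both captures, had 77.8 and 86.5 RPKM in the RPL10A capture, against 606.7 and 640.3 RPKM in its totals, and 66.3 and 37.4 RPKM in the RPS25 capture, against 600.4 and 517.2 RPKM in its totals. The capture libraries did not overlap the totals in either line, and the difference of 0.55 had an interval from −0.14 to 1.24 (limma adjusted p = 0.753).

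uc007hnk.2 and uc009iah.3 had unadjusted intervals that excluded 0 but did not pass the test after adjustment. Like uc009hcn.2, the 4 transcripts of these 2 paragraphs were chosen with their values known. uc007hnk.2 differed by 1.09 (SE 0.48, limma adjusted p = 0.687), with 2861 and 2728 RPKM in the RPL10A capture, against 429.5 and 951.0 RPKM in its totals, and 3434 and 2664 RPKM in the RPS25 capture, against 1970 and 1102 RPKM in its totals. Between the captures it differed by −0.11 (SE 0.34, limma adjusted p = 0.911), and between the totals by −1.20 (SE 0.34, limma adjusted p = 0.357), and the 2 totals of each line lay far apart. uc009iah.3 differed by −0.89 (SE 0.20, limma adjusted p = 0.470), with 128.4 and 137.0 RPKM in the RPL10A capture, against 88.8 and 111.2 RPKM in its totals, and 252.3 and 222.6 RPKM in the RPS25 capture, against 99.4 and 91.8 RPKM in its totals. Its RPS25 capture libraries were the highest of the 8. Compared directly, its captures differed by −0.83 (limma adjusted p = 0.0307) and its totals by 0.06 (limma adjusted p = 0.950, SE 0.14 each).

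**Figure D2:**
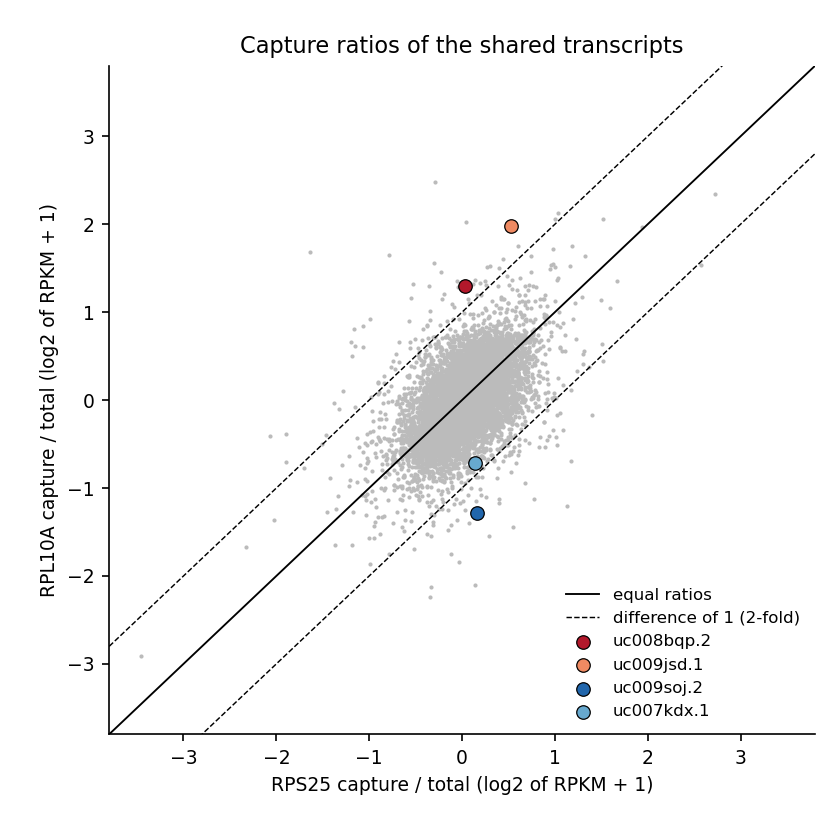
RPL10A capture ratio against RPS25 capture ratio of the 8090 shared transcripts, both in log2 of RPKM + 1. Each point is a transcript and the mean of 2 libraries per group, the solid line marks equal ratios and the dashed lines a difference of 1. Most points lie within the dashed lines, and uc008bqp.2 and uc009jsd.1 lie above the upper line while uc009soj.2 lies below the lower line.

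Over all transcripts the difference was centred near 0, with a median of −0.02, an SD of 0.38 and 5% and 95% quantiles of −0.63 and 0.56. It reached 2-fold upward in 78 transcripts and 2-fold downward in 78. Taken from 1 library per group, the SD ran from 0.449 to 0.583 over the 16 combinations of libraries, so the mean of 2 libraries removed part of the spread. The ratios themselves were wider for RPL10A, with an SD of 0.43, than for RPS25, with 0.35. Both ratios were above 0 in 35.1% of transcripts and both below 0 in 35.3%. The RPL10A ratio alone was above 0 in 13.9%, and the RPS25 ratio alone in 15.7%.

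The intervals give the sizes of difference that these libraries could resolve. In 5323 of 8090 transcripts (65.8%) the 95% interval of the difference lay within 2-fold in either direction, and in 1208 (14.9%) it lay within 1.5-fold. The median half-width of the interval was 0.61, so few transcripts had an interval narrow enough to lie within 1.5-fold. The interval lay wholly beyond 2-fold in 2 transcripts upward and 4 downward. These intervals are per transcript and not adjusted for their number, and they assume 1 spread for the 4 groups although the groups were unequal.

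The spread of the difference depended on the footprint level. In the lowest quintile of level (median 7.11 RPKM) the SD was 0.512 and 5.19% of transcripts differed by at least 2-fold. In the highest quintile (median 208 RPKM) the SD was 0.273 and 0.247% did. The median SE was 0.382 in the lowest and 0.191 in the highest quintile. Differences of 2-fold numbered 49 upward and 35 downward in the lowest quintile, but 3 and 1 in the highest, where uc008bqp.2 is found.

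**Figure D3:**
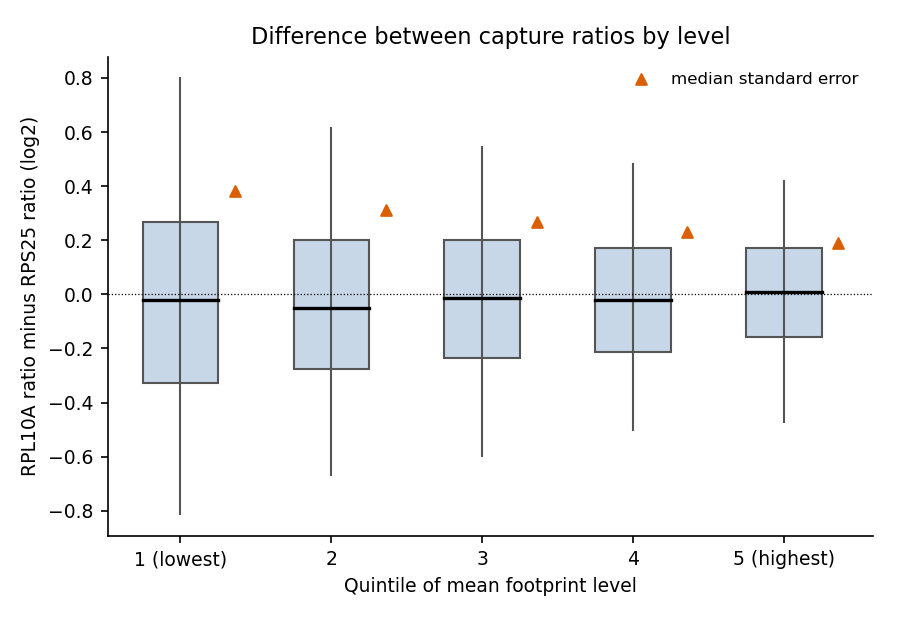
RPL10A ratio minus RPS25 ratio, in log2, by quintile of mean level (1618 transcripts each). Boxes span the quartiles, black bars are medians, lines run from the 5% to the 95% quantile and triangles give the median standard error. The boxes narrow from the lowest to the highest quintile together with the standard error, and the medians stay between −0.05 and 0.01.

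The transcripts with a 2-fold ratio in a capture showed how far the captures shared their extremes. Of 104 transcripts at least 2-fold higher in the RPL10A capture, 19 were so in the RPS25 capture, and 15 had an RPS25 ratio below 0. Their median ratio was 1.25 in the RPL10A and 0.58 in the RPS25 capture. Of 105 at least 2-fold lower in the RPL10A capture, 15 were so in the RPS25 capture and 17 had a ratio above 0 there, with medians of −1.20 and −0.47. Chosen the other way round, the 48 transcripts at least 2-fold higher in the RPS25 capture had medians of 0.72 in the RPL10A and 1.15 in the RPS25 capture, and the 51 at least 2-fold lower had −0.71 and −1.17. Each choice favours the capture it was made on, so the smaller value in the other capture is fixed in part by the choice. The counts describe the overlap: 19 is 18.3% of the RPL10A list and 39.6% of the RPS25 list. Of all 8090 shared transcripts, 48 were at least 2-fold higher and 51 at least 2-fold lower in the RPS25 capture. The RPS25 ratio was above 0 in 50.8% of all.

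Of the transcripts called in the RPL10A capture against its totals in a fit of that line alone, 54 higher and 45 lower were shared with the RPS25 line. The difference of ratios was called in 1 of the 54 and in 0 of the 45, against 0.0124% of all transcripts, and 22 and 27 had an unadjusted limma p below 0.05, against 7.21% of all. The difference used the same RPL10A libraries as the choice, so these are descriptions. The 54 had a median difference of 0.56 and the 45 of −0.79. The RPS25 ratio was above 0 in 49 of the 54, with a median of 0.62, and in 5 of the 45, with a median of −0.44, against 50.8% of all transcripts.

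Leaving out the total libraries changed the picture. Compared directly, the RPL10A and RPS25 captures differed in 110 transcripts, 34 higher (0.42%) and 76 lower (0.939%) in the RPL10A capture, or 1.36% of those tested (limma, adjusted p below 0.05). The libraries of the RPL10A capture did not overlap those of the RPS25 capture in 40.9% of all transcripts. With 2 libraries on each side such separation is also frequent where nothing differs, so this share is a description. The 34 had a median capture difference of 0.95 and a median difference between the lines' totals of 0.33. The 76 had medians of −1.01 and −0.18, with the difference between totals above 0 in 28 of the 34 and in 16 of the 76. After the totals were subtracted the medians were 0.57 and −0.86. No transcript was called between the totals themselves, while 730 (9.02%) had an unadjusted limma p below 0.05. The median SE was 0.195 for a comparison of captures and 0.275 for the difference of ratios, which adds the error of the total libraries.

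The direct comparison depended on single libraries and on the weight given to each group. Without the second RPS25 capture library 12 transcripts were called, without the first 233, without an RPL10A capture library 21 or 22, without an RPS25 total library 17 and without an RPL10A total library 23 or 24. Weights that allow the groups unequal spread gave 4 calls, and a fit without a variance trend gave 3. A group left with 1 library was assumed to vary like the others.

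Ranked by the moderated t statistic of the difference, the top 200 transcripts (highest list) and the bottom 200 (lowest list) were followed into libraries the difference did not use. At the edge of the lists, the last transcript inside the highest had a difference of 0.37 (t = 2.31) and the first outside it 0.50 (t = 2.30). At the other edge the differences were −0.95 inside and −0.50 outside (t = −2.63 each). In the highest 200 the median RPL10A ratio was 0.57 and the median RPS25 ratio −0.20. In the lowest 200 they were −0.56 and 0.31. The lists span all levels, with 46 of the highest and 26 of the lowest in the lowest quintile and 54 and 50 in the highest.

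A capture through another protein of the large subunit, RPL22, gave medians near 0 in both lists. The median RPL22 ratio was 0.00 in the highest list (182 measured) and −0.05 in the lowest (174 measured), against −0.04 for all 7605 transcripts measured. Over those 7605 the quartiles were −0.17 and 0.11, with 0 transcripts 2-fold higher and 1 2-fold lower. In the RPL22 line 0 of 8588 transcripts were called against the totals (limma, adjusted p below 0.05). Medians near 0 are thus not particular to these lists in the RPL22 capture. That capture used an HA tag, another antibody and a lysis buffer listed without heparin, and its total libraries also carry the antibody in their labels. In it uc008bqp.2 had 3140 and 2784 RPKM on captured ribosomes, against 2701 and 2723 RPKM in the totals. Its RPL22 ratio was 0.12 (SE 0.09, limma adjusted p = 0.465).

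The other readout was RNA-seq of wild-type cells given an Rpl10a siRNA or a control siRNA, in heavy polysome fractions (at least 4 ribosomes per mRNA) and light fractions (all others). Of the transcripts shared by both lines, 7704 were measured there. In heavy fractions the median change with Rpl10a siRNA was −0.28 in the highest list, where 62 of 190 were above 0, and 0.15 in the lowest list, where 109 of 189 were above 0. The median of all transcripts was 0.01, and 50.4% of them were above 0. In light fractions the medians were 0.00 and 0.02, against 0.02 for all.

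The polysome shift, heavy minus light with Rpl10a siRNA less the same with control siRNA, had medians of −0.12 in the highest list and 0.18 in the lowest list, against 0.08 for all. Of the highest list 6 transcripts were called toward heavy and 10 toward light (3.16% and 5.26%). Of the lowest list 6 and 2 were (3.17% and 1.06%). Over the 7704 shared transcripts the calls made up 3.00% and 3.74%. Over all 8084 transcripts of the RNA-seq files they made up 2.86% and 3.57%, or 231 and 289, and 112 and 412 with medians aligned. Without 7 of the 8 RNA libraries in turn no shift was called, and without the second Rpl10a heavy library 2070 were. With control siRNA, the median of heavy minus light was 0.05 in the highest list and −0.26 in the lowest, against −0.02 for all. Of the highest list 58 were called heavier and 40 lighter, and of the lowest 34 and 57, against 28% and 26.4% of all 8084. The quartiles of the lists overlapped in each of these RNA readouts, and no test of the lists was made.

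**Figure D4:**
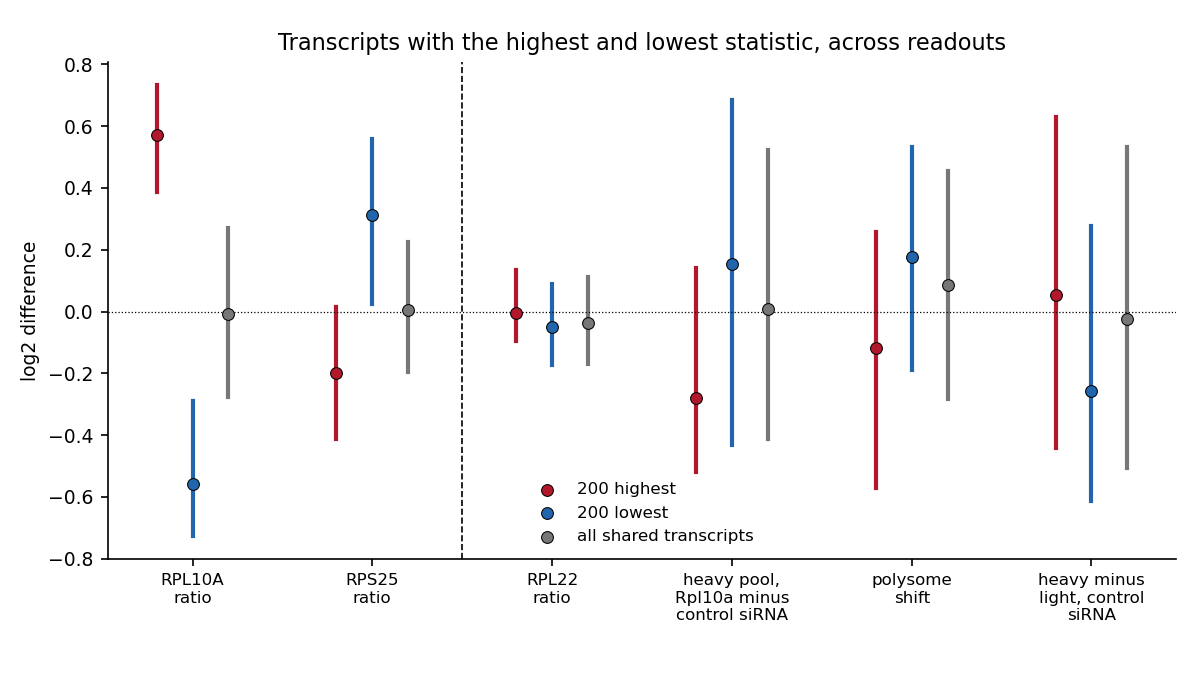
Median and quartiles, in log2, of the highest list and the lowest list (200 transcripts each, ranked by the statistic of the RPL10A-minus-RPS25 difference), beside all shared transcripts. Left of the dashed line are the ratios that chose the lists, and right of it the RPL22 ratio, the change with Rpl10a siRNA in heavy fractions, the polysome shift and heavy minus light with control siRNA. The lists part by construction on the left, and on the right their quartiles overlap, with heavy-fraction medians of −0.28 and 0.15.

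In these RNA libraries 3 of the 4 transcripts shown above differed between Rpl10a siRNA and control siRNA. uc008bqp.2 had 963.7 and 986.8 in heavy fractions with Rpl10a siRNA, against 1658 and 1770 with control siRNA (deposited RPM values). In light fractions it had 915.6 and 723.7 with Rpl10a siRNA, against 1567 and 1578 with control siRNA. It fell by 0.81 in heavy fractions (SE 0.13, limma adjusted p = 0.00363) and by 0.95 in light fractions (SE 0.13, limma adjusted p = 0.0323). Calls were frequent in heavy fractions, where 22.7% of transcripts were lower and 26.8% higher, and less so in light fractions, with 3.61% lower and 2.51% higher. The scaling moved these splits: in heavy fractions 1836 were lower and 2164 higher as deposited, 1243 and 2454 with equal library totals, and 2473 and 1687 with medians aligned, and in light fractions 292 and 203, 241 and 356, and 296 and 159. The median heavy-fraction change of all transcripts was 0.01 as deposited, 0.12 with equal totals and −0.12 with medians aligned. Whether uc008bqp.2 is the target of the siRNA, and its fall a readout of the knockdown itself, was not tested. Its polysome shift was 0.14 (SE 0.19, limma adjusted p = 0.642), with similar values in both fractions under each siRNA.

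uc009jsd.1 had 29.2 and 24.8 in heavy fractions with Rpl10a siRNA, against 44.6 and 50.1 with control siRNA. In light fractions it had 26.2 and 15.4, against 38.8 and 40.3. It fell by 0.79 in heavy fractions (SE 0.22, limma adjusted p = 0.0201) and by 0.94 in light fractions (SE 0.22, limma adjusted p = 0.0479), where scaling to library totals gave an adjusted p of 0.0610. The heavy call was lost without the second control heavy library (limma adjusted p = 0.112) or the second Rpl10a heavy library (limma adjusted p = 0.0698).

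uc007kdx.1 had 325.1 and 281.6 in heavy fractions with Rpl10a siRNA, against 113.6 and 102.5 with control siRNA. In light fractions it had 243.3 and 330.1, against 154.2 and 141.8. It rose by 1.48 in heavy fractions (SE 0.16, limma adjusted p = 0.00184) and by 0.93 in light fractions (SE 0.16, limma adjusted p = 0.0336). uc009soj.2 had 68.6 and 37.5 in heavy fractions with Rpl10a siRNA, against 71.6 and 47.2 with control siRNA (limma adjusted p = 0.713, and 0.194 with a replicate block). In light fractions it had 111.5 and 57.7, against 120.0 and 66.7, and within each replicate number the value with Rpl10a siRNA was the lower one. Without 1 of the RNA libraries the changes of uc008bqp.2 and uc007kdx.1 kept their direction and, in heavy fractions, their call. In light fractions the calls of both, and that of uc009jsd.1, were lost when any of 5 libraries was left out, namely the 4 control siRNA libraries and the second light library with Rpl10a siRNA, with limma adjusted p up to 0.288. With the replicate number as a block, the limma adjusted p in light fractions was 7.83e-05 for uc008bqp.2, 0.000913 for uc009jsd.1 and 0.000211 for uc007kdx.1. The blocked limma adjusted p in heavy fractions was 6.13e-05 for uc008bqp.2, 0.000789 for uc009jsd.1 and 6.64e-07 for uc007kdx.1.

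uc009iah.3, whose RPS25 ratio exceeded its RPL10A ratio, had 152.1 and 144.4 in heavy fractions with Rpl10a siRNA, against 79.4 and 61.3 with control siRNA. In light fractions it had 112.7 and 97.2, against 102.1 and 100.3. The heavy libraries did not overlap between siRNAs and the light ones did. It rose by 1.08 in heavy fractions (SE 0.15, limma adjusted p = 0.00275), and its polysome shift was 1.03 (SE 0.21, limma adjusted p = 0.0357). A fit with a replicate block gave a limma adjusted p of 3.8e-06 for the heavy change and 0.000924 for the shift. Without single libraries the heavy call held, with limma adjusted p up to 0.0279. The shift was called without the second Rpl10a heavy library and lost without any of the other 7, with limma adjusted p up to 0.168.

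**Figure D5:**
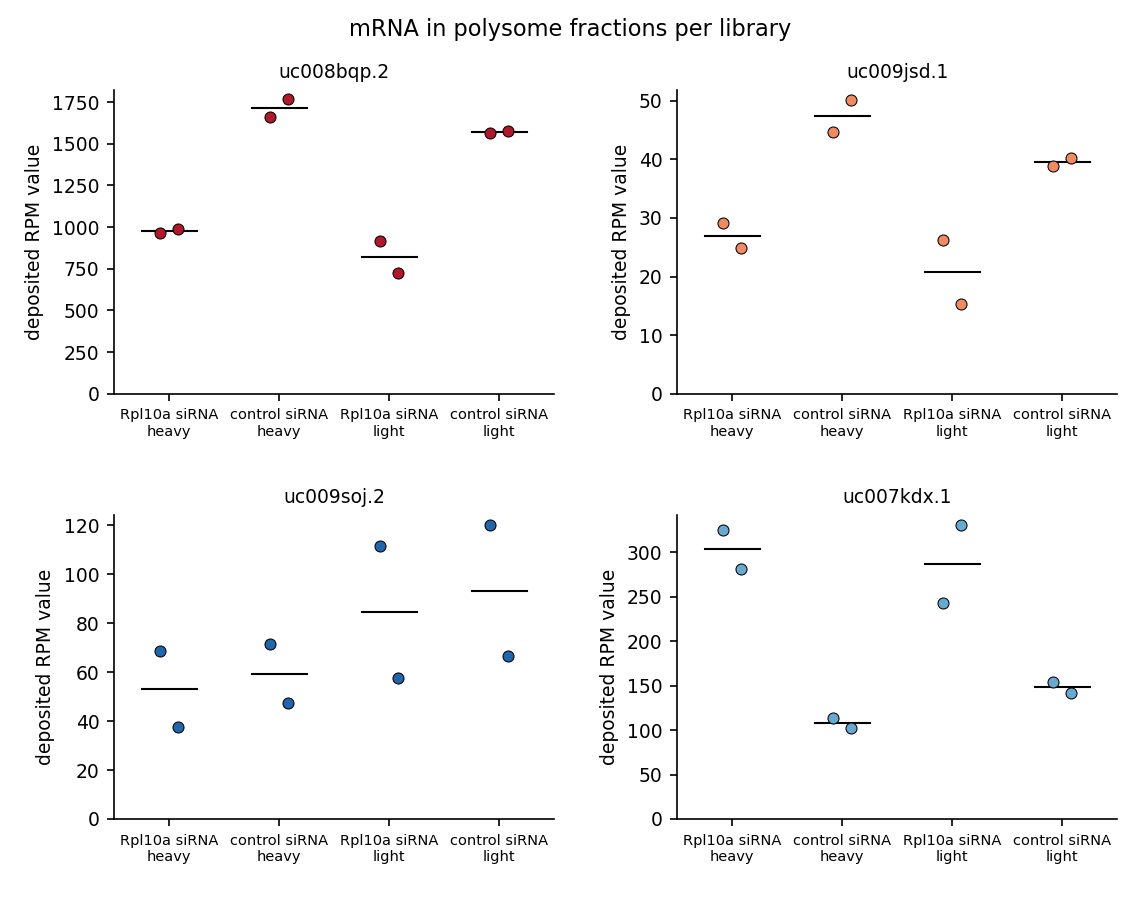
Deposited RPM values, on linear axes from 0, of 4 transcripts in heavy and light polysome fractions with Rpl10a siRNA and with control siRNA. Points are libraries and bars the mean of 2. uc008bqp.2 and uc009jsd.1 are lower with Rpl10a siRNA in each fraction, uc007kdx.1 is higher, and the libraries of uc009soj.2 overlap.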

How the data were processed

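The authors deposited footprint values per transcript as RPKM, per the file headers, rounded to 1 decimal. The deposited RNA-seq values, called RPM in the headers, summed to more in some libraries than that unit allows and were treated as a scaled signal. The submitters' processing notes name cutadapt, Bowtie2 and mm10 for all libraries, and STAR also for those of the RPL22 line and the RNA-seq. Tool versions, counting method and transcript filter: not given in the sources used here. Transcript lengths were not used here, whole reads were not recovered and the read depth is unknown, so no count test was run.

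Groups followed the sample titles. One mean per group was fitted to log2(RPKM + 1) of 8 libraries over the 8090 shared transcripts, using limma 3.58.1 (R 4.3.3) with a trend in its moderated variances. All tests were two-sided. The RPL22 capture and the RNA-seq values were fitted separately in the same way, with a pseudocount of 1. The steps were tried on simulated data in which each transcript had the same spread in all groups, so the effect of unequal spread was not tested. Named transcripts were to be the 2 per direction with the largest called difference at or above the median level and with replicate ratios that did not overlap between lines, filled up with uncalled ones of smallest p. The members, lists and settings were chosen with earlier results of these data known. The replicate numbers were not read as pairs in the footprint libraries, since deviations of same-numbered libraries correlated between −0.26 and 0.04. In the RNA-seq they correlated between 0.40 and 0.62, but with 2 numbers and no label on what a number marks, the fit kept no block and blocked values are given beside it. At most 1.47% of values were identical between the 2 libraries of a group. Alternatives were other pseudocounts, scalings, filters, weights, blocks and sets of libraries. No sequence is shown, as identifiers were not paired with genes.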

Additional observations from a re-analysis of the deposited data

Results flagged for a closer look

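The difference between the capture ratios of uc008bqp.2, 1.26 on the log2 scale, stood out because its effect under the same contrast differed between the RPL10A and RPS25 lines by a test of the difference itself (SE 0.14, limma adjusted p = 0.0353). The call was lost with a replicate block (limma adjusted p = 0.105), without a variance trend (limma adjusted p = 0.286) and on leaving out any single library. Whether this transcript comes from the tagged gene itself was not tested, nor was any other cause.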

How the results depend on the processing

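The count of differing capture ratios was 1. It stayed 1, and was uc008bqp.2, with a pseudocount of 0.1, a minimum mean of 10 RPKM, aligned medians, equal library totals, quantile normalization, robust moderation or library weights. It was 2 with a pseudocount of 5, 5 with all 12 Ribo-Seq libraries, and 0 against a null of 1.5-fold, without a variance trend, with a replicate block, with a replicate block within line, or with a replicate block whose RPS25-line numbers were crossed, an alternative chosen after seeing the data. Without single libraries it ran from 0 to 1. It was 1 without the first or the second RPS25 capture library, and neither transcript was uc008bqp.2. The difference of uc008bqp.2 stayed between 1.20 and 1.33 in all 22 alternatives, and 9 called it. With the replicate block its limma adjusted p was 0.105. The captures compared directly gave 110 calls, between 81 and 130 under the other scalings, filter, pseudocounts and robust moderation, 3 without a variance trend, 4 with library weights, 359 with all 12 libraries, 47 with the replicate block and 98 with crossed numbers. Without single libraries they ran from 12 to 233. Equal library totals gave 30 higher and 100 lower, against 34 and 76. The siRNA change of uc009soj.2, never called, ran from −0.62 to 0.23 in heavy and from −0.62 to 0.31 in light fractions without single libraries (alternatives also chosen after seeing the data). It turned to 0.10 and 0.23 in heavy fractions without the first control heavy or second Rpl10a heavy library, and to 0.26 and 0.31 in light fractions without the first control light or second Rpl10a light library. With a replicate block, limma called 5248 heavy-fraction changes, against 4000 without it, 1912 light-fraction changes, against 495, and 2520 polysome shifts, against 520. Causes were not tested. Unknown read depth and 2 libraries per group limit all values.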
